A study of Anopheles gambiae with 16 samples.

Results

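In female Anopheles gambiae, a mosquito that transmits malaria, a set of transcripts was bright in heads and carcasses alike and low in circulating hemocytes, the blood cells of the insect. Of 16884 array probe sets whose IDs begin with Ag., read as mosquito probe sets, 260 (1.54%) belonged to it. A member had to have a head mean and a carcass mean each at least 2 above the hemocyte mean on the scale log2(intensity + 16), with head and carcass means within 1 of each other. Its highest hemocyte array also had to lie below the lowest of the 8 head and carcass arrays. Members were thus chosen by their levels on 12 arrays, 4 each of heads, carcasses and hemocytes, all labelled after 2 rounds of amplification. Those levels are given as a description with no test.

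All females were of the G3 strain, were taken 1 to 2 days after eclosion and are called naive in the series design. A head array measured a pool of 40 females by its collection note and a carcass array a pool of 20, the carcass being the body that remained once hemolymph had been drawn and the head cut off. For hemocytes, hemolymph was pressed from the clipped proboscis, from 1000 females by the source name or from 500 by the collection note, which speaks of infected females. RNA of heads and carcasses came through Trizol and a column and that of hemocytes through a column alone, so tissue, collection and extraction cannot be told apart. Two-round samples started from 80 ng of total RNA, and another 4 carcass arrays were labelled in 1 round from 1000 ng. The source name of head replicate 4 speaks of carcasses of 20 females while its other labels say head, and without that array the rule gave 254 members, 243 of them among the 260.

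Hemocytes circulate in the hemolymph, where they engulf microbes, take part in melanization and clotting and secrete immune proteins. The carcass holds flight and leg muscle, fat body, epidermis, gut and ovaries, while the head holds the brain, eyes and antennae along with its own muscle, fat body and cuticle. Muscle, fat body, epidermis and nervous tissue are thus found on both sides of the neck but not among circulating cells. In such pooled samples, fewer cells of a type and less RNA per cell cannot be told apart. No source used here pairs the array IDs with genes, so probe sets are named by ID, and the tissue labels were not checked against marker genes.

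The set was large beside its mirror images under the same limits. Probe sets shared by hemocytes and carcasses and low in heads numbered 22, and 1 (Ag.2R.1686.0_CDS_at) was shared by hemocytes and heads and low in carcasses. With the limits turned round, 275 were high in hemocytes and low in both heads and carcasses. The plot of hemocyte against head and carcass means shows the members at its upper left, among other probe sets that met the difference and failed another limit.

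**Figure D1:**
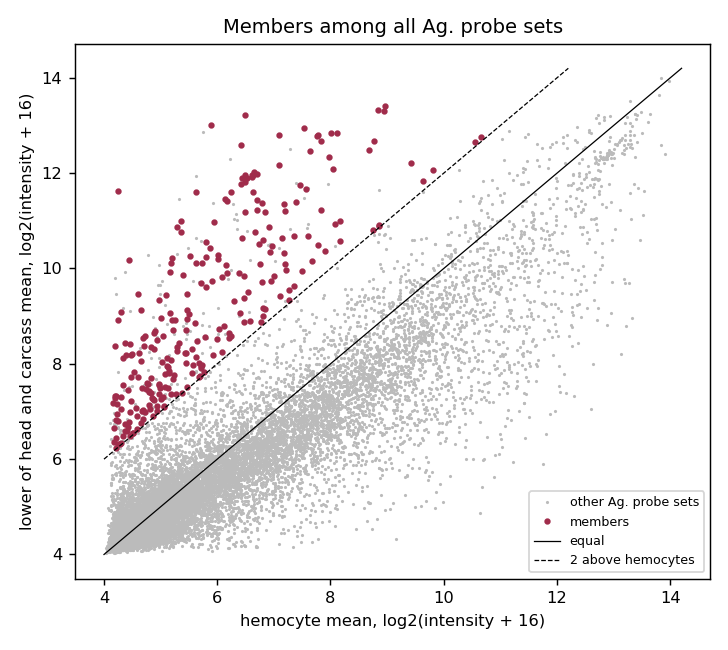
Hemocyte mean (x axis) against the lower of the head and carcass means (y axis), both as log2(intensity + 16) over 4 two-round arrays per tissue, for 16884 Ag. probe sets. The 260 members (dark points) lie on or above the dashed line of a difference of 2, from 2.01 to 7.38, as do some other probe sets that failed the limit on heads against carcasses or on overlap.

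The difference between hemocytes and the lower of the other means ran from 2.01 to 7.38 over the members, with a median of 3.01, against a median of -0.14 over all Ag. probe sets. It was at least 3 in 133 members, at least 4 in 71, at least 5 in 29 and at least 6 in 4. The 29 include all 9 probe sets of ID cluster 8 on arm 2R, taken up below. Mean intensity in heads had a median of 525 (range 66.9 to 15947), and 91 members exceeded 1000 in both heads and carcasses. In hemocytes the median was 32.6 (range 1.97 to 1688). The members thus lay in the upper part of the array's range in heads and carcasses, as the rule requires, and mostly near its floor in hemocytes.

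Probe sets whose IDs begin with Pf., read as those of the parasite, gave a background level for each array. Their 95th percentile lay at 8.83 to 15.3 intensity units. All 260 members lay above it on the 4 head arrays and 259 on the 4 two-round carcass arrays, the exception being Ag.2L.357.0_CDS_s_at at 5.95 on carcass replicate 3. On hemocyte arrays 139 lay above background on all 4, 86 on 1 to 3, and 35 on none. Of all 16884 Ag. probe sets, 8073 lay above background on all 4 hemocyte arrays. On single hemocyte arrays 66.5% to 73.5% of members did, beside 10050 to 10459 of all Ag. probe sets. Low in hemocytes thus meant dim for most members and not above background for 35, and many other probe sets were as dim there.

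Array by array, the median member measured 387, 611, 539 and 646 in heads 1 to 4. It measured 496, 589, 647 and 614 in the two-round carcasses and 28, 32.1, 27.4 and 38.9 in hemocytes. Over all Ag. probe sets the median lay between 19.1 and 27 on every array, so the median member stood near the typical probe set in hemocytes and far above it elsewhere. Members held 8.26% to 13.3% of all Ag. intensity in heads and 10% to 11.6% in two-round carcasses, but 0.461% to 0.622% in hemocytes. The lowest head array, replicate 1, is taken up below.

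**Figure D2:**
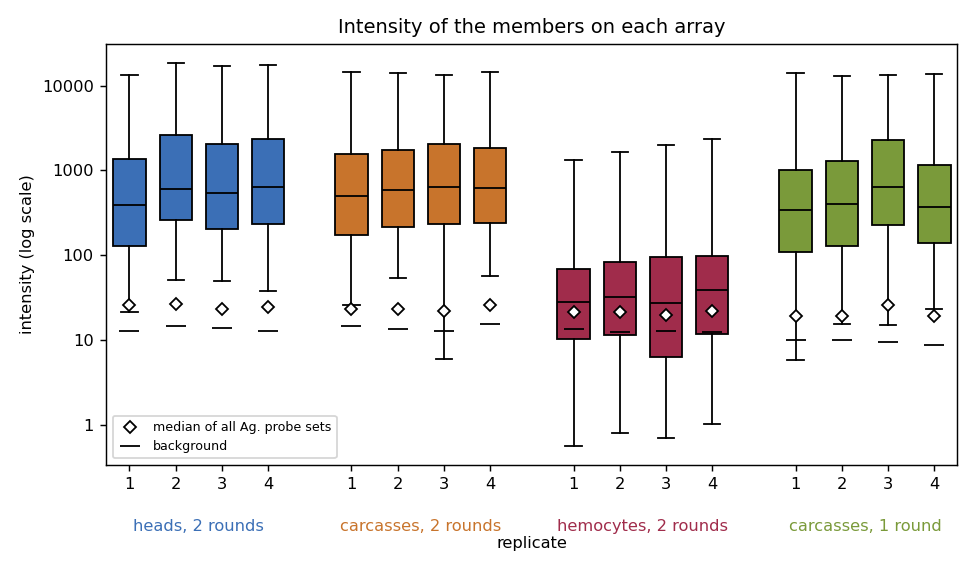
Intensity (log axis) of the 260 members on each of the 16 arrays. Boxes span the quartiles with the median as a line, whiskers reach the lowest and highest member, diamonds mark the median of all Ag. probe sets and short bars the background, and the hemocyte medians of 27.4 to 38.9 lie below every other array's median of 343 or more.

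Among the 35 members below background on all hemocyte arrays, Ag.2L.245.0_CDS_at on arm 2L had the largest difference. Its 4 hemocyte arrays read 2.76, 1.49, 6.46 and 1.42, and its two-round carcass arrays 5738, 5658, 6072 and 5216. The head arrays read 117, 10118, 7745 and 9535. The tissues did not overlap, but head replicate 1 was far below the other 3 heads. The level was at least 238-fold higher in heads than in hemocytes and at least 442-fold higher in carcasses, as ratios of geometric means with hemocytes held at background.

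Second in that group was Ag.2R.288.0_CDS_a_at on arm 2R, where the suffix a marks, by the array maker's naming, probes that match several transcripts of 1 gene. It measured 5.51, 6.2, 5.44 and 6.03 in hemocytes. Heads read 586, 1407, 1315 and 1544, and carcasses 1366, 1621, 1602 and 1804, giving at least 88.7-fold and 124-fold. Head replicate 1 was again the lowest of its group. After 1 round the carcasses were brighter than after 2, at 5573 ± 1222 (SD, n = 4) against 1598 ± 180.

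Members that were above background in hemocytes could differ just as widely. Ag.2L.161.0_CDS_at read 53.2, 45, 87.8 and 130 in hemocytes, against 7433 to 10580 over the 4 heads and 9368 to 10366 over the 4 carcasses. It was 131-fold higher in heads and 137-fold higher in carcasses by geometric means. Ag.2L.444.1_a_at measured 34.8 ± 14.4 in hemocytes, 7251 ± 3898 in heads and 3103 ± 368 in carcasses, and its head arrays read 1497, 9293, 8265 and 9949. Head replicates 2 to 4 lay above every carcass array and head replicate 1 below every one.

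The brightest members by their mean over the 8 head and carcass arrays were Ag.2L.155.10_a_at and Ag.2R.270.0_CDS_a_at. The first measured 15947 ± 3516 in heads, 10878 ± 976 in carcasses and 507 ± 209 in hemocytes. The second measured 10399 ± 2158, 14009 ± 555 and 456 ± 132. Both were among the brighter hemocyte members as well, since 59 members exceeded 100 there and 2 exceeded 1000. Those 2, named after their values were seen, were Ag.2R.381.0_UTR_at at 1688 ± 614 and Ag.2L.220.9_a_at at 1494 ± 175 in hemocytes, and even these lay below all 8 head and carcass arrays.

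Single hemocyte arrays carried some members. Ag.2R.268.0_CDS_s_at, whose suffix s marks probes shared between different genes, read 1.35, 9.22, 2.67 and 1479 in hemocytes, against 12464 to 13877 in heads and 7339 to 9042 in carcasses. Replicates 1, 2 and 3 were below background, and replicate 4 stood alone. Ag.2L.700.0_CDS_a_at read 31.7, 43.8, 799 and 1896, so here replicates 3 and 4 were high. These 2 members had the largest spread between hemocyte arrays. Over the whole set, 2, 30, 6 and 15 members lay at least 1 (log2) above the mean of the other hemocyte arrays on replicates 1 to 4. That is 0.769%, 11.5%, 2.31% and 5.77% of members, against 0.167%, 3.42%, 0.555% and 1.92% of the 7202 probe sets above background on all 8 head and carcass arrays.

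The rule's limits cut through a continuous range. Just inside the limit of 2 was Ag.2R.943.0_CDS_at, at 159 ± 56.3 in heads, 158 ± 12.5 in carcasses and 25.6 ± 3.61 in hemocytes, a difference of 2.01. Just outside was Ag.2R.1140.1_UTR_a_at at 2.00 (1.996 before rounding). At the limit of 1 between heads and carcasses, Ag.2R.1093.0_CDS_at was inside, lower in heads by 0.98, and Ag.2L.357.0_UTR_s_at outside, higher in heads by 1.01. At the limit on overlap, Ag.2R.939.1_a_at was inside by 0.04 and Ag.X.727.0_CDS_at outside, its head replicate 1 at 3.5 lying just under the highest hemocyte array at 3.52. In all, 614 probe sets failed only the difference, 95 only the head and carcass limit and 30 only the limit on overlap, and 23 members had a difference under 2.1.

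Arrays that took no part in a choice gave a check on it. Members were chosen again without the 3 arrays of 1 replicate number and then read on those arrays, asking for the held-out head and carcass each to be at least 2 above the held-out hemocyte array. With replicate 2, 3 or 4 held out, 210 of 263 (79.8%), 216 of 247 (87.4%) and 215 of 259 (83%) met this, against 2.4%, 2.49% and 2.46% of all Ag. probe sets. With replicate 1 held out, 179 of 290 (61.7%) did, against 1.82%. Most probe sets of each re-chosen list thus passed the limit of 2 on unused arrays, with the lowest share on replicate 1. For replicates 1 to 4 held out, 238, 236, 229 and 238 of the list were among the 260. The 260 themselves were chosen with all of these arrays, so for them no array was unused. The shares over all Ag. probe sets include dim ones, since only 7202 were above background on all 8 head and carcass arrays. Held-out head and carcass were both above the held-out hemocyte array, by any amount, in 280 of 290, 260 of 263, 246 of 247 and 259 of 259 for replicates 1 to 4. The same share over all Ag. probe sets was not computed. The lists were chosen as high on the other arrays of these tissues, so such counts were likely from the start and nothing is read from them. The median held-out difference was 2.34, 3.05, 3.23 and 3.03, beside -0.19, -0.21, -0.18 and -0.20 over all Ag. probe sets.

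Carcasses labelled in 1 round gave a second view, with arrays that the rule did not use set against the same hemocyte arrays, so no test is given. Same-numbered carcass arrays of the 2 labellings may come from the same pools, so this view is not independent of the arrays that chose the members. All 260 members had a one-round carcass mean above the hemocyte mean, with a median difference of 3.06. Over all Ag. probe sets, 6400 of 16884 did, with a median of -0.13. The members were chosen as low on these hemocyte arrays, so a high count was likely from the start. In 201 members every one-round array lay above every hemocyte array with a mean difference of at least 2, a pattern met by 4.39% of all Ag. probe sets. The smallest difference, 0.10, was that of Ag.2L.220.9_a_at, with one-round arrays at 1281, 1238, 3373 and 1188 beside 1325 to 1648 in hemocytes. One further member, Ag.2R.4290.0_at, fell below background on a one-round array, at 5.82 on replicate 1. With one-round in place of two-round carcasses the rule gave 165 members, of which 137 were shared, 52.7% of the 260 and 83% of the 165.

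Heads and carcasses, held within 1 of each other by the rule, were split about evenly. The head mean was the higher in 121 members and the carcass mean in 139, with a median head minus carcass difference of -0.04 (from -0.98 to 0.96). In 22 members all 4 head arrays lay above all 4 carcass arrays, against 13.2% of all Ag. probe sets, and in 21 the reverse, against 8.56%. The rule used this contrast, so nothing is read from these shares.

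Head replicate 1 was low for many members together. There 88 members (33.8%) lay at least 1 below the mean of the other 3 heads, against 4.55% of the 7202 probe sets above background on all 8 head and carcass arrays. The median member was lower by 0.65 on that array, while the median of those 7202 was 0.08 higher. On no other array of the 16 were more than 7.69% of members that far below their group. The member medians of heads 2, 3 and 4 differed less, at 611, 539 and 646. Largest of all was Ag.2L.245.0_CDS_at, given above, followed by Ag.UNKN.160.0_CDS_s_at at 77.1 on head replicate 1 and 3702, 2602 and 3930 on the others. These examples were taken after their values were seen.

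The 88 members that were low on head replicate 1 came from 75 ID clusters. Their median intensity was 140 on head replicate 1 and 622, 555 and 713 on the other heads, whereas the remaining 172 members had medians of 578, 585, 528 and 556. In two-round carcasses replicate 1 was lower by a median of 0.40 in the 88 and by 0.15 in the others. In one-round carcasses it was lower by 0.59 and 0.32, against a mean that includes the high replicate 3. Median intensities on one-round replicates 1 to 4 were 292, 346, 734 and 339 in the 88. In the others they were 375, 421, 555 and 382, so in both sets replicate 1 lay nearer to replicates 2 and 4 than to replicate 3. Replicate 3 of the one-round carcasses stood the other way, with 75 members (28.8%) at least 1 above the other 3 arrays, 46 of them among the 88, against 8.28% of the 7202 probe sets. The Gapdh control ratio of 3' over 5' intensity, a sign of how far labelling ran along the transcript, was 37.5 on head replicate 1 and 65, 86.9 and 102 on the other heads, while that of actin was 17.5 and 25.6, 21 and 18.7. Their part in the low values was not tested.

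**Figure D3:**
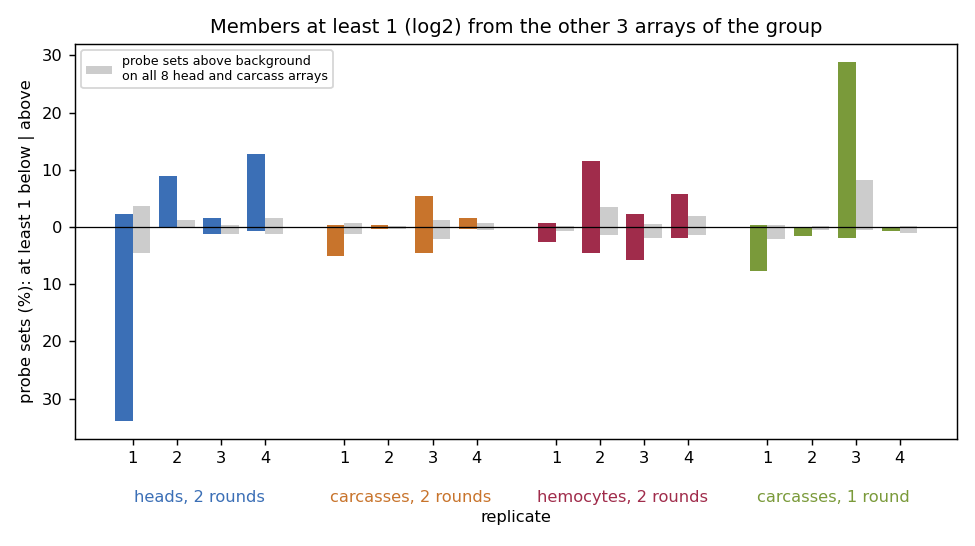
Share of the 260 members (coloured bars) at least 1 (log2) above or below the mean of the other 3 arrays of their group, drawn upwards and downwards in percent for each array, beside the same for 7202 probe sets above background on all head and two-round carcass arrays (grey). Head replicate 1 has 33.8% of members below and one-round carcass replicate 3 has 28.8% above.

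The median SD of a member was 0.45 (log2) over the head arrays, 0.26 over two-round carcasses, 0.39 over hemocytes and 0.43 over one-round carcasses. For probe sets that exceeded background on every array of a group the medians were 0.27, 0.24, 0.27 and 0.29. The median SD of members was thus close to that of bright probe sets in two-round carcasses and larger in the other 3 groups. In hemocytes only 139 of the 260 members were above background on all 4 arrays, so there the sets differ in brightness. The SDs of heads and one-round carcasses include head replicate 1 and one-round replicate 3, which stood apart for many members. A general trait of the members is therefore not read from these SDs.

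Probe sets marked UTR were frequent among the members. The IDs mark a probe set CDS (coding sequence), UTR (untranslated region) or neither. UTR probe sets made up 51 of the 260 members (19.6%), against 4.68% of all Ag. probe sets and 9.34% of the 7202 bright ones. CDS probe sets made up 66.2% of members, 83.3% of all and 73.3% of bright ones. In the list that was high in hemocytes and low in heads and carcasses, 15 of 275 (5.45%) were marked UTR. These are shares with no test, and members were brighter than most probe sets. The UTR share also varied with brightness. By the lower of the head and carcass means (log2), it was 6.15% of bright probe sets below 8, 14% from 8 to 9, 20% from 9 to 10, 25% from 10 to 11, 21.9% from 11 to 12 and 32.5% at 12 and over. Among the members of these bins it was 7.06%, 17.6%, 17.6%, 36.8%, 18.5% and 45.8%. At like brightness the members' share was thus higher in 4 bins and lower in 2, with 24 to 85 members a bin.

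UTR members were also the brighter ones, with a median head intensity of 1517 against 419 for CDS members and 746 for unmarked ones. Their median difference from hemocytes was 3.48, against 2.88 for CDS and 2.98 for unmarked members. The control genes, whose probe sets lie at fixed places along the transcript, differed between the tissues as well. For actin, the ratio of 3' to 5' intensity lay at 17.5 to 25.6 in heads, 22.3 to 29.4 in two-round carcasses, 11.8 to 14.6 in hemocytes and 2.22 to 2.93 in one-round carcasses. For Gapdh it was 37.5 to 102, 27.3 to 41.2, 36.4 to 59.5 and 1.41 to 1.93. Hemocytes thus had the lowest two-round ratios for actin but not for Gapdh, and the part of these ratios in the UTR share was not tested.

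In 46 targets with 1 UTR and 1 CDS probe set at least 1 was a member. Both were members in 20, only the UTR probe set in 23 and only the CDS probe set in 3. The difference from hemocytes was the larger at the UTR probe set in 39 of the 46 (84.8%), against 58.5% of 340 bright pairs without a member, although the choice of members favours whichever probe set has the larger difference. On one-round carcass arrays the UTR probe set had the larger difference in 18 of the 46 (39.1%), against 52 of those 340 pairs (15.3%). The UTR probe set thus had the larger difference in most of the 46 after 2 rounds and in fewer after 1. The one-round difference uses the hemocyte arrays that chose the members. Nothing is therefore read from either contrast with the 340 pairs, which were picked for holding no member.

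The targets 2R.274.0 and 2R.461.0 show how far the probe sets of a pair could part. At the first, the UTR probe set Ag.2R.274.0_UTR_a_at measured 6209 ± 973 in heads, 10569 ± 1109 in two-round carcasses and 95.8 ± 78.7 in hemocytes. Its partner Ag.2R.274.0_CDS_s_at measured 157 ± 44.7, 980 ± 228 and 14.4 ± 8.04, and so was no member for want of equal heads and carcasses. After 1 round the partner read 5678 ± 950 in carcasses, close to the 7261 ± 1965 of the UTR probe set. At the second, the UTR probe set measured 2536 ± 1414 in heads, 2264 ± 1182 in carcasses and 26.9 ± 13.8 in hemocytes, while its CDS partner read 15.3 ± 10.5, 20.4 ± 13.6 and 2.61 ± 1.12, near background in every two-round tissue, and 92.5 ± 50 in one-round carcasses. A target could thus enter the set through 1 of its probe sets alone.

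**Figure D4:**
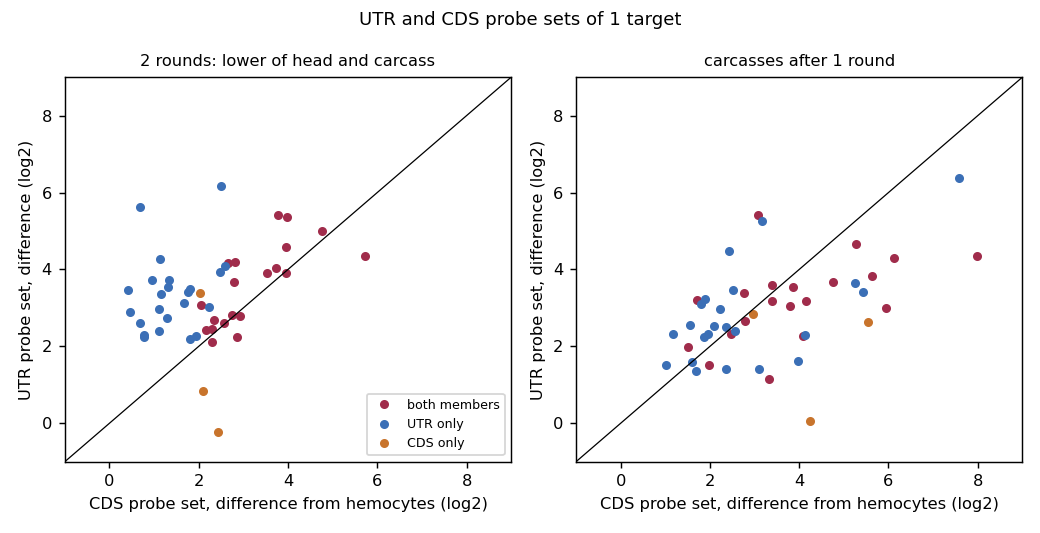
Difference from hemocytes (log2) at the UTR probe set (y axis) against the CDS probe set (x axis) of 46 targets with a member, for the lower of the head and two-round carcass means (left) and for one-round carcasses (right). The line marks equal differences, with 39 of 46 targets above it on the left and 18 of 46 on the right.

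The members were spread over the arms, with 84 on 2R, 70 on 2L, 49 on 3R, 27 on 3L, 17 on X and 13 with no arm given. That is 32.3%, 26.9%, 18.8%, 10.4%, 6.54% and 5%, beside 29.7%, 21.7%, 20%, 15%, 7.96% and 5.62% of the 7202 bright probe sets. Probe sets with suffix a made up 40% of members and 27.1% of the bright ones. Members with this suffix had a median difference of 3.69, against 2.84 for members with no suffix and 3.09 for those with suffix s.

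The 260 members fell into 219 ID clusters, meaning IDs that share the arm and the first number, and 239 targets. In 136 clusters the member was the only probe set on the array. Among the other 83, all probe sets were members in 22. The remaining clusters held 80 probe sets that were no members, of which 63 failed the difference of 2 and 17 failed only the head and carcass limit. Their median difference from hemocytes was 1.05 and 70 of the 80 were above 0. Over all Ag. probe sets the median was -0.14 and 5862 of 16884 were above 0. Probe sets of a cluster may share a transcript or sequence and are not independent. A lean of partners towards the members chosen on these arrays was thus likely from the start, and nothing is read from it.

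Cluster 8 on arm 2R held most members, with all 9 of its probe sets. The 8 with suffix a were nearly interchangeable. On head replicates 1 to 4 they read 1349 to 1643, 6419 to 7231, 3821 to 4576 and 4880 to 5586. On two-round carcass arrays they lay between 3401 and 5283 and on hemocyte arrays between 42.8 and 124, a difference of 5.28 to 5.46. Arrays set the values apart far more than probe sets did, and head replicate 1 was again the lowest head. On one-round carcass replicates 1 to 4 they read 599 to 740, 1222 to 1298, 2096 to 2505 and 927 to 1091.

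The ninth probe set of the cluster, Ag.2R.8.0_CDS_s_at, was brighter and differed less between the labellings than the rest. It measured 7343 ± 2381 in heads, 11962 ± 638 in two-round carcasses and 207 ± 59.2 in hemocytes. Carcasses were 1.73 to 1.94 higher (log2) after 2 rounds than after 1 at the 8 others and 0.34 higher here. Probes shared between genes may read other transcripts too, so its level is uncertain.

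**Figure D5:**
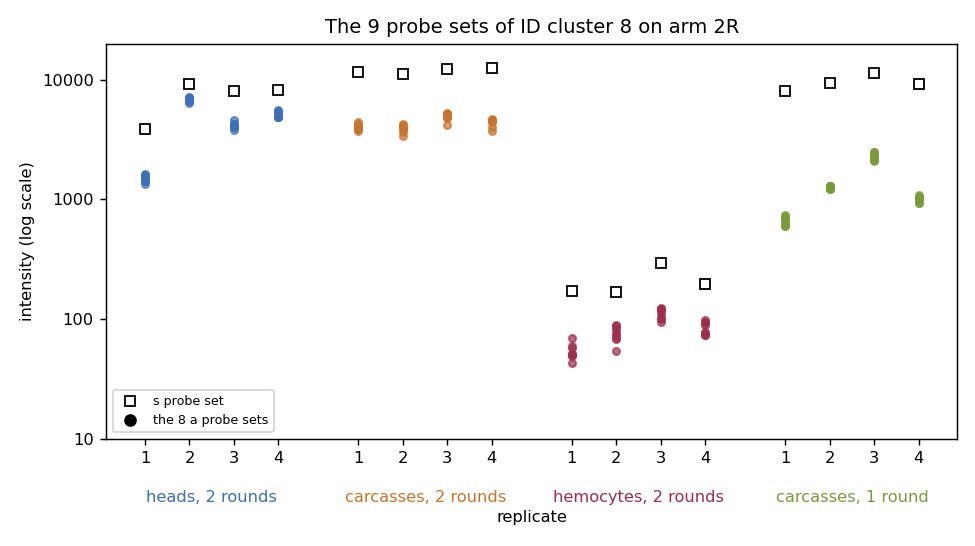
Intensity (log axis) of the 9 probe sets of ID cluster 8 on arm 2R on each of the 16 arrays, with filled circles for the 8 probe sets of suffix a and open squares for the probe set of suffix s. The circles lie between 42.8 and 124 on hemocyte arrays and between 3401 and 5283 on two-round carcass arrays.

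Within carcasses, members differed between the labellings in both directions. Between two-round and one-round carcasses 76 of the 260 members (29.2%) were called, at an adjusted p under 0.05 by limma and at least 2-fold, against 9.89% of all Ag. probe sets. Higher after 2 rounds were 61 members, against 7.29% of all, and lower were 15, against 2.61%. The two-round carcass arrays had a part in choosing the members, so nothing is read from these shares, and the differences of single members are given with no test. The median member was 0.49 higher after 2 rounds, beside 0.12 for all Ag. probe sets and 0.39 for the 7202 bright ones. With quantile normalization the called members split 33 to 23.

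By class, 12 of 51 UTR members (23.5%), 18 of 37 unmarked members (48.6%) and 31 of 172 CDS members (18%) were called higher after 2 rounds. The CDS members called higher include every suffix a probe set of cluster 8 on arm 2R. Those are nearly interchangeable, so the counts are of probe sets and not of independent transcripts. Over all Ag. probe sets the shares were 23.3%, 19.9% and 4.56%. Called lower were 1, 1 and 13 members, beside 17 of 790, 59 of 2034 and 364 of 14060 over all Ag. probe sets of these classes.

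The largest rise was at Ag.3L.2662.0_at, with 324, 333, 459 and 287 after 2 rounds and 36.1, 15.6, 71.5 and 34.1 after 1, which put it 2.80 ± 0.39 (SE) higher in log2 terms. Next was Ag.2L.863.0_UTR_at, with 1585 ± 260 against 355 ± 90.7, higher by 2.13 ± 0.17 (SE). Two-round and one-round arrays overlapped at neither. In hemocytes they measured 22.7 ± 19.3 and 127 ± 18.8, so the one-round carcasses of the first overlapped hemocytes and those of the second did not.

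The largest falls were at CDS probe sets. Ag.3R.184.0_CDS_a_at measured 309 ± 81.3 after 2 rounds and 2391 ± 1160 after 1 (log2 difference -2.81 ± 0.37 SE). Ag.2L.156.1_CDS_s_at stood at 363 ± 55.6 and 2656 ± 743 (log2 difference -2.79 ± 0.21 SE). Against hemocytes, at 37.1 ± 10.5 and 58.1 ± 11.3, these members stood further apart in one-round carcasses than in the two-round tissues that chose them. Measured against two-round hemocytes, carcasses after 1 round thus stood closer at the largest rises and further away at the largest falls. Rounds and starting RNA differed together between the carcass groups, and one-round heads and hemocytes were not analysed here.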

How the data were processed

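Total RNA of pooled females was measured on 16 probe set arrays, 4 arrays per group, which the labels number as biological replicates 1 to 4 within each group. Each deposited value is a linear intensity for 1 probe set on 1 array. The authors used GCOS 1.4, per the submitters' processing notes, and no source used here gives the summary, background or scaling steps. All values exceeded 0 and no scaling was added. None of the 16884 Ag. IDs matched the gene table (15165 genes, assembly idAnoGambNW_F1_1; 0 matches). The 4 groups were fitted with limma 3.58.1 in R 4.3.3 on log2(intensity + 16) over all Ag. probe sets, with Benjamini-Hochberg adjustment. Log2 differences understate changes of dim probe sets, and only 4 arrays per group limit the precision. On simulated data for the two-round against one-round comparison, with 16884 probe sets, 84% of 3-fold and 100% of 8-fold changes were recovered, with 5 false calls. The changes were added on the scale log2(intensity + 16), so at dim probe sets they are not 3-fold or 8-fold in intensity. The simulated noise was independent, with no array-wide shifts and no correlation of same-numbered arrays, so these rates may not hold for the real arrays. Same-numbered arrays of the 2 carcass groups are taken as pairs and may come from the same pool. Their deviations from their group means correlated at 0.42, 0.24, 0.54 and 0.30. The main fit and its SEs do not use this pairing. Named probe sets are those with the largest difference below and above background in hemocytes, the brightest, those next to each limit, those that vary most between hemocyte arrays, the largest cluster, and the largest rises and falls between labellings. Members and lists were chosen with earlier results of these data known.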

Additional observations from a re-analysis of the deposited data

Results flagged for a closer look

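Of 112 groups of 4 arrays of named probe sets and of member medians, 10 had a highest or lowest array far from the other 3, going by the gap as a share of the whole range against Dixon's critical value. Chance gives about 1 in 20 for groups not picked on their values. That rate does not hold here, since some probe sets were named for their spread or their lowest array and 9 are of 1 cluster, so the gaps are a description with no test. In 7 of them the array was head replicate 1 and it was low. The gap as a share of the range was 0.938 for Ag.2L.245.0_CDS_at, 0.902 for Ag.2L.444.1_a_at, 0.893 for Ag.2R.939.1_a_at and 0.865 for Ag.2L.155.10_a_at. It was 0.846 for Ag.2L.161.0_CDS_at, 0.834 for Ag.2R.8.0_CDS_s_at and 0.833 for Ag.2R.288.0_CDS_a_at. Over all 260 members, 39 (15%) had such an array among the heads, and in 34 of these it was replicate 1 below the others. The shares for the other groups were 9.23% in two-round carcasses and 8.08% each in hemocytes and one-round carcasses, where replicate 3 lay far above in 17 of 21.

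On hemocyte replicate 4, Ag.2R.268.0_CDS_s_at lay far above the other hemocyte arrays (0.916). Ag.2L.156.1_CDS_s_at was low on two-round carcass replicate 3 (280 against 383 to 395; 0.909). Ag.X.727.0_CDS_at, just outside the set, was low on one-round carcass replicate 3 (0.914).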

How the results depend on the processing

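The member count of 260 became 428 with a pseudocount of 1, 146 with 64, 133 with a difference of at least 3, 173 with heads and carcasses within 0.5 and 165 with one-round carcasses in the rule. Median centring gave 236 and quantile normalization 254, of which 229 and 240 were among the 260. Leaving out arrays gave 247 to 290. The 201 members whose one-round carcasses cleared hemocytes became 344 and 113 with pseudocounts of 1 and 64, and 191 to 203 without single arrays. The held-out share of 77.4% over all 4 replicate numbers stayed between 71.3% and 80.3%. Members called between labellings numbered 56 to 85 beside 76, 108 with no minimum fold, and 67 to 90 with single arrays left out. With quantile normalization 33 were higher and 23 lower, where 61 and 15 are reported, and the median of all Ag. probe sets moved from 0.12 to 0.02 (0.00 with median centring). With the replicate number as a block 79 members were called, and the block changed the call of no named probe set. The UTR share of 19.6% was 12.9% with a pseudocount of 1, 28.8% with 64 and 21.2% with one-round carcasses. Members below background on all hemocyte arrays numbered 26 and 53 at the 90th and 99th percentiles. Of 272 recomputed differences of 17 named members, 269 moved by less than the SD between arrays and the lowest was 4.01. These members were named for a large difference, brightness, spread between hemocyte arrays or the largest cluster. Members next to a limit, such as Ag.2R.943.0_CDS_at at 2.01, were not recomputed, so the lowest value follows from that choice. Leaving out an array of the tissue with the higher mean left a difference as it was, and these cases count among the 269. Alternatives for the UTR share, the background and these differences were chosen after seeing the data. The number of arrays, and values near background in hemocytes, limit what can be said of dim members.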
